A study of Mus musculus with 8 samples.

Results

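The gamma crystallins are represented on the array by the genes Cryga, Crygb, Crygd, Crygf and Crygs. All probe sets that the platform annotation assigns to 1 of these genes alone were taken, which gave 5 probe sets, 1 for each gene, among 22626 probe sets that are not array controls. A further probe set names Crygc and Crygb together and is described apart. RNA came from whole lenses of mouse embryos of a mixed background at embryonic day 15.5, with 4 wild type lenses and 4 lenses carrying dnBrg1, a dominant-negative form of the chromatin remodeling ATPase Brg1 under the αA-crystallin promoter. This promoter is active in postmitotic fiber cells, the transgenic samples come from 1 founder line, and the wild type samples were stage-matched littermates. Each sample is labelled total RNA, but the free-text description calls all wild type samples and dnBrg1 replicates 1 and 2 polysome-bound, and only dnBrg1 replicates 3 and 4 total. Both groups share the strain background, the stage and the array, and the comparison asks how gamma crystallin transcripts differ when Brg1 function is impaired in lens fibers.

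Gamma crystallins are small, densely packed structural proteins of the lens, each folded into a pair of similar domains. They accumulate in elongating and mature fiber cells, where they give the lens its refractive power, and mutations in several of their genes cause cataract in mice. Cryga, Crygb, Crygc, Crygd and Cryge lie in a row on chromosome 1, with 1 other listed gene, a pseudogene, among them, and Crygf lies on the same chromosome with 9 listed genes between it and Cryga. Crygs lies on chromosome 16 and encodes γS-crystallin, a more distant member of the family that accumulates in secondary fibers.

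The promoters show what the chromosome 1 genes have in common that the choice of genes did not use. The last 130 bases before the annotated transcription start are given for each gene with a probe set, from the RefSeq promoter table on build GRCm38.p6, which held all 5 members. Read 5′ to 3′ on the strand of the gene, they cover chr1:65103364-65103493 on the minus strand for Cryga, chr1:65082291-65082420 (minus) for Crygb, chr1:65073533-65073662 (minus) for Crygc, chr1:65063441-65063570 (minus) for Crygd, chr1:65926392-65926521 (plus) for Crygf and chr16:22811411-22811540 (minus) for Crygs. Capitals mark the runs of 6 or more bases that the 5 chromosome 1 promoters all hold on the strand shown.
Cryga: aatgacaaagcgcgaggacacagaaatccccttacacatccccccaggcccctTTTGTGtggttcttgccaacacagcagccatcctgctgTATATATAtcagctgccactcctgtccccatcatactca
Crygb: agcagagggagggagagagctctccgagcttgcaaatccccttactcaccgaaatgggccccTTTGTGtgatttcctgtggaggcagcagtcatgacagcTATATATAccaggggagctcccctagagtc
Crygc: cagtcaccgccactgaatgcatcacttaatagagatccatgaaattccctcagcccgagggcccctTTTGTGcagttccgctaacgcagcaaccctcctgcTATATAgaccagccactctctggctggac
Crygd: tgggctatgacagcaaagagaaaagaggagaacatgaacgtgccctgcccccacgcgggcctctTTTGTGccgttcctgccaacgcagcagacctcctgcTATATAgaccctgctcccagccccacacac
Crygf: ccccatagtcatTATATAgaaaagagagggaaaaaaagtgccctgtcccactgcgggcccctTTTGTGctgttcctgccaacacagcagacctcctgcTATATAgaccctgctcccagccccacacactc
Crygs: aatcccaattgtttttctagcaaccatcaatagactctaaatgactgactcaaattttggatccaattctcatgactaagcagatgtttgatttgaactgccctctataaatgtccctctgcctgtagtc
There were 2 such runs, TTTGTG and TATATA. The first began between 64 and 77 bases before the start, and the nearest copy of the second began 35 to 38 bases after it in all 5 promoters. Crygs held neither run, and the motif TATAAA began 25 bases before its start. In windows of 250 bases before the start, TTTGTG was present in 8.0% and TATATA in 5.25% of 32851 RefSeq promoters on the gene's strand. Both runs at a spacing of 35 to 38 bases occurred in 6 of these windows. They belong to the 5 genes in which the runs were found and to Cryge, which was not used to find them.

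**Figure D1:**
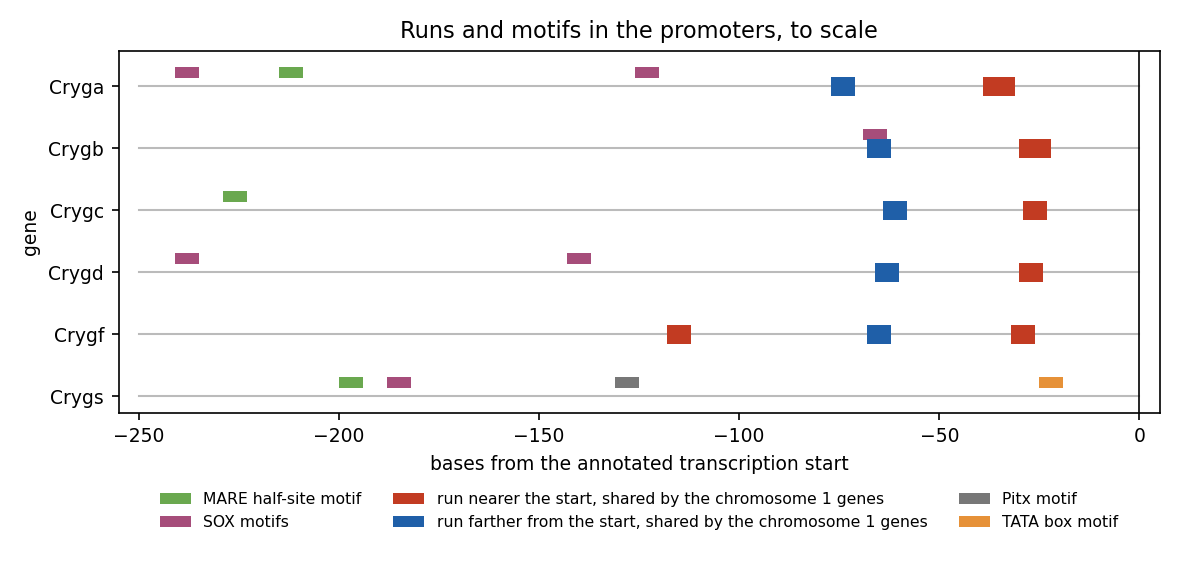
Runs and motifs in the 250 bases before the annotated start (horizontal axis, bases) of 6 gamma crystallin genes (vertical axis). Wide bars are the runs shared by the chromosome 1 genes and thin bars are motifs searched on both strands. The shared runs keep a similar spacing in Cryga, Crygb, Crygc, Crygd and Crygf and are missing from Crygs. Both lie farther from the start in Cryga than in the others, and Crygf holds a further TATATA upstream.

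Promoter sequence was most alike between Crygd and Crygf, with 110 of 130 bases identical in a global alignment (84.6%), and between Cryge and Crygf (109 bases, 83.8%). Pairs among the other printed chromosome 1 promoters shared between 60.0% and 70.8%, and Crygs shared between 55.4% and 60.8% with each of the 5. The alignment allowed gaps, and the share that unrelated promoters reach in it was not computed. Motifs of factors that act in the lens were searched in the windows of 250 bases on both strands. The motif TGCTGA, a piece of the element bound by Maf proteins, was found in Cryga, Crygc and Crygs (16.1% of all promoters hold it). The Sox motif ACAAAG was found in Cryga and Crygb (16.5% of all), where the Crygb copy overlaps the run TTTGTG. The Sox motif ACAATG was found in Crygd and Crygs (10.7%) and the Pitx motif TAATCC in Crygs (6.25%). TATAAA was found in Crygs (12.4%), and the paired heat shock units GAANNTTC were found in none of these windows (6.69%). These matches describe letters and not bound sites.

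All gamma crystallin probe sets read near the upper end of the scale. Values are intensities after robust multichip averaging, which makes the arrays' distributions alike, taken to log2. The highest value of each array lay between 14.66 and 14.80, and it was higher in every dnBrg1 array than in every wild type array. The members' values lay 0.12 to 1.51 below the highest value of their array, and whether differences are compressed there was not tested. The position of 1 probe set against another does not rank the transcripts. Fold changes are given as log2 of the dnBrg1 level relative to wild type, with ± for the standard error where SD is not written. A probe set was called at a limma adjusted p under 0.05, with Benjamini-Hochberg adjustment over all 22626 probe sets.

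The libraries differed in their array controls. Control probe sets read the 3′ and the 5′ part of Gapdh and β-actin transcripts, and the log2 gap from 3′ to 5′, averaged over both genes, was 1.43 to 2.66 in wild type and 0.59 to 0.65 in dnBrg1 samples, with no overlap. Results are given with this gap as a covariate below, and for the dnBrg1 samples of either description.

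In dnBrg1 lenses, Cryga, Crygd and Crygf fell, Crygb did not pass the test with a value in the same direction, and Crygs differed by less than its error. Thus 3 of 5 members were called lower and none higher. At an unadjusted limma p under 0.05 there were 4 lower and 0 higher, and the methods' t-test, with Benjamini-Hochberg adjustment, gave the same counts. The Benjamini-Hochberg step was added here. The paper's full criterion also required significance analysis of microarrays, which was not run. In the reported limma fit 21% of all probe sets were called lower and 19.8% higher, 40.8% in all, so a lower call was common on these arrays. In 4 of 5 members every dnBrg1 sample lay below every wild type sample, which was the case for 20.6% of all probe sets (40.1% had groups without overlap in either direction). The median log2 fold change of the 5 members was -0.34, against -0.08 over all probe sets.

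Crygf, which encodes γF-crystallin, had the largest decrease of the 5. Its log2 intensity in wild type replicates 1 to 4 was 14.06, 13.94, 13.89 and 13.93, and in dnBrg1 replicates 1 to 4 it was 13.46, 13.53, 13.44 and 13.29. The groups were 0.36 apart at their nearest samples. Mean values were 13.95 ± 0.07 (SD, n = 4) for wild type lenses and 13.43 ± 0.10 (SD, n = 4) for dnBrg1 lenses, a log2 fold change of -0.52 ± 0.10 (limma adjusted p = 0.0022), or 69.5% of the wild type level. The suffix of this probe set marks probes that can also bind related transcripts, so part of its signal may belong to other gamma crystallins, Cryge among them, and this was not tested.

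Cryga, the gene of γA-crystallin, was at 14.55, 14.49, 14.46 and 14.49 in wild type replicates 1 to 4. In dnBrg1 replicates 1 to 4 it was at 14.17, 14.22, 14.13 and 14.00. The groups did not overlap, and the dnBrg1 samples were spread more widely (SD 0.09, n = 4) than the wild type samples (SD 0.04, n = 4). The log2 fold change was -0.36 ± 0.09 (limma adjusted p = 0.012), or 77.8% of the wild type level.

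Crygd, the gene of γD-crystallin, was at 14.05, 13.96, 14.01 and 14.00 in the wild type samples and at 13.68, 13.78, 13.69 and 13.52 in the dnBrg1 samples. Every dnBrg1 sample was again below every wild type sample, by at least 0.18. The log2 fold change was -0.34 ± 0.09 (limma adjusted p = 0.018), or 79.0% of the wild type level. This call was lost without dnBrg1 replicate 4, the lowest sample (log2 fold change -0.29, adjusted p = 0.056; range over all alternatives 0.00097 to 0.29).

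Crygb, the gene of γB-crystallin, was at 14.16, 14.03, 14.15 and 14.18 in wild type replicates 1 to 4 and at 13.91, 14.00, 13.87 and 13.75 in dnBrg1 replicates 1 to 4. Wild type replicate 2 stood below the other wild type samples, and only 0.03 separated it from the highest dnBrg1 sample. The log2 fold change was -0.25 ± 0.10 and did not pass (limma adjusted p = 0.067), with a 95% interval of -0.46 to -0.03 before adjustment. The paper's full criterion was not among the 21 alternatives. Crygb passed in 7 of them. These included a variance that follows the intensity (adjusted p = 0.0080), where the standard error was 0.06, and the methods' t-test after adjustment (adjusted p = 0.025; range over all alternatives 0.0070, without adjustment, to 0.35).

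Crygs, the gene of γS-crystallin, was at 13.58, 13.62, 13.62 and 13.77 in the wild type samples and at 13.69, 13.62, 13.41 and 13.63 in the dnBrg1 samples. The groups overlapped, and dnBrg1 replicate 3 was the lowest sample of all. The log2 fold change was -0.06 ± 0.10 (limma adjusted p = 0.64), and its 95% interval ran from -0.29 to 0.16, which includes the value of Crygb.

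**Figure D2:**
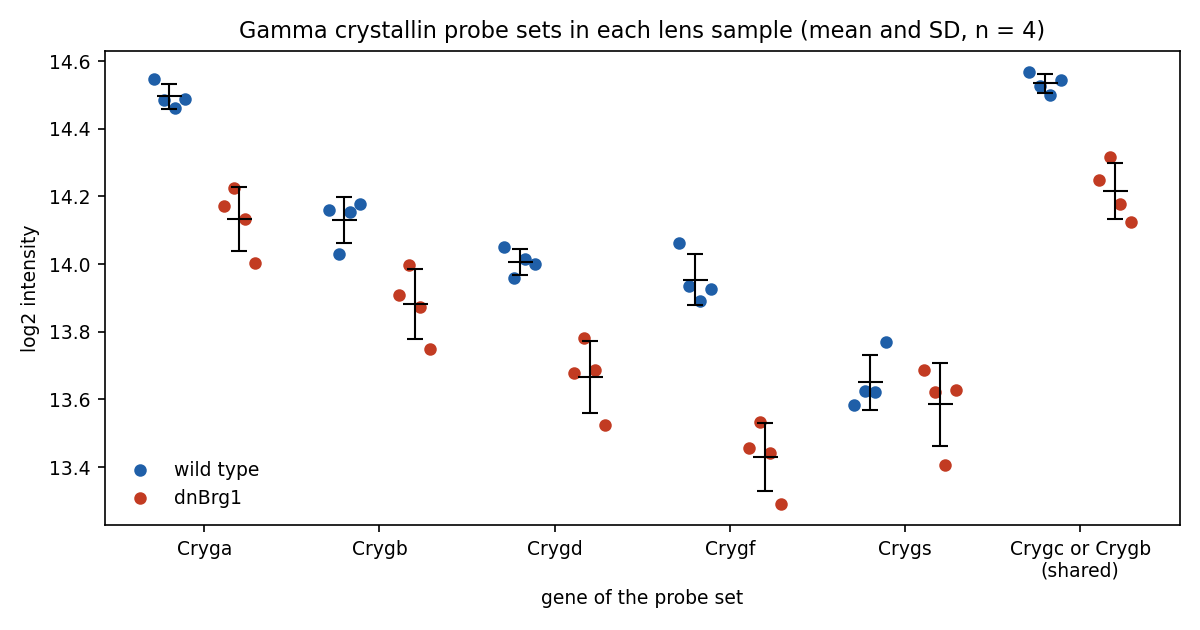
Log2 intensity (vertical axis) of the 5 gamma crystallin probe sets and the probe set shared by Crygc and Crygb (horizontal axis), with 1 blue point for every wild type sample, 1 red point for every dnBrg1 sample and bars for the mean and SD of 4 samples. Blue and red points are apart for all probe sets but that of Crygs, and dnBrg1 replicate 4, the last red point, is lowest in the others.

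The probe set that names Crygc and Crygb was also lower in dnBrg1 lenses. It was at 14.57, 14.53, 14.50 and 14.54 in wild type and at 14.25, 14.32, 14.18 and 14.13 in dnBrg1 replicates 1 to 4, with no overlap between the groups. It fell by 0.32 ± 0.09 on the log2 scale (limma adjusted p = 0.019), and the call was lost when dnBrg1 replicate 3 (adjusted p = 0.051) or 4 (0.060) was left out (range in all alternatives 0.00034 to 0.42). How much of this signal comes from either gene cannot be told apart. Crygn, a gamma crystallin gene on chromosome 5 that was not among the 5 members, was at -0.09 ± 0.09 (limma adjusted p = 0.44), with overlapping groups.

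The dnBrg1 samples differed among themselves in the chromosome 1 genes. In Cryga, Crygb, Crygd, Crygf and the shared probe set, replicate 4 was the lowest and replicate 2 the highest of the dnBrg1 samples. Against the wild type mean, Crygf was at -0.66 in replicate 4 and -0.42 in replicate 2, Cryga at -0.49 and -0.27, Crygd at -0.48 and -0.23, and Crygb at -0.38 and -0.13. The same samples were lowest and highest of the dnBrg1 group for Cryaa, Cryba1, Crybb1 and Crybb3, so this order was not limited to gamma crystallins. Crygs followed another order, at -0.02 in replicate 4 and -0.03 in replicate 2, with its lowest value in replicate 3 (-0.24). Samples of 1 array share all technical variation of that array, and related probe sets may bind the same transcripts. Neither was tested as a source of this order. With dnBrg1 replicates 1 and 2 alone, whose description matches that of the wild type samples, Crygf was at -0.46 ± 0.13 and called (limma adjusted p = 0.038). Cryga (-0.30 ± 0.12), Crygd (-0.28 ± 0.12) and Crygb (-0.18 ± 0.13) were not called in that fit (limma adjusted p from 0.12 to 0.35). With replicates 3 and 4 alone, Crygf (-0.59 ± 0.13, limma adjusted p = 0.018) and Cryga (-0.43 ± 0.13, limma adjusted p = 0.046) were called.

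**Figure D3:**
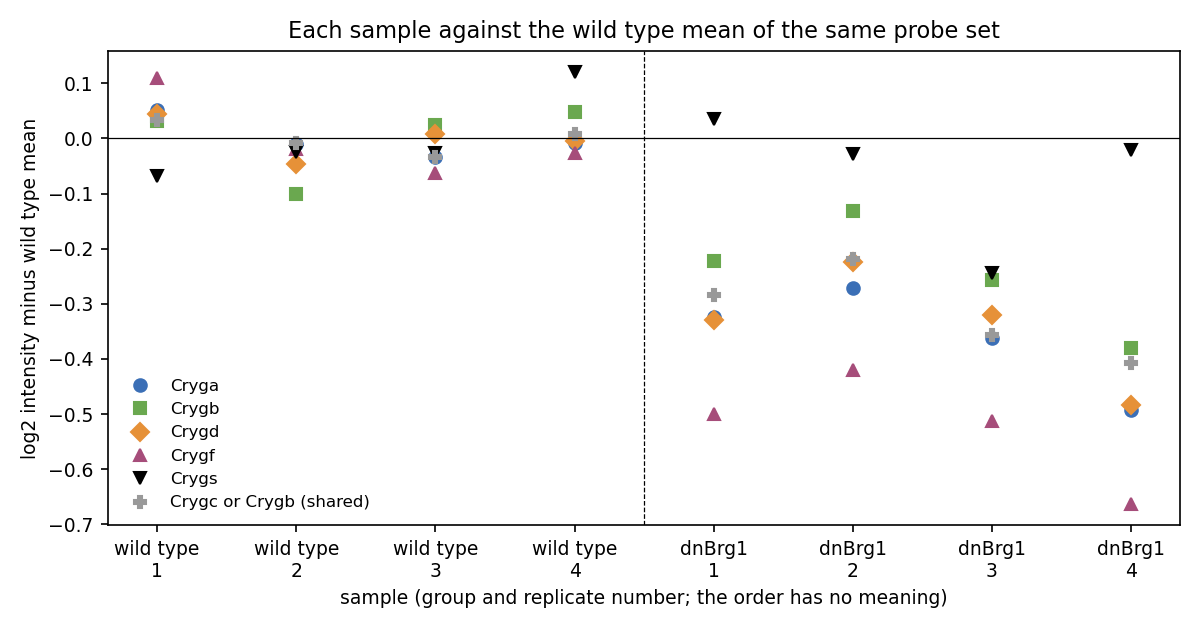
Log2 intensity minus the wild type mean of the same probe set (vertical axis) in each sample (horizontal axis). The probe sets of the chromosome 1 genes lie between -0.13 and -0.66 in the dnBrg1 samples, with replicate 4 lowest, while Crygs is near 0 in 3 of the 4.

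Whether the chromosome 1 genes changed unequally to Crygs was tested on the difference of the 2 log2 values within each sample. From wild type to dnBrg1 lenses, this difference changed by -0.46 ± 0.11 for Crygf (two-sided exact permutation p = 0.0286, the smallest that 70 assignments allow; adjusted over 4 pairs p = 0.076). It changed by -0.30 ± 0.09 for Cryga and by -0.27 ± 0.10 for Crygd (exact permutation p = 0.0571 and adjusted p = 0.076 for both), and by -0.18 ± 0.09 for Crygb (exact permutation p = 0.114, adjusted p = 0.11). None of the 4 pairs passed after adjustment. None passed in 10 of 11 alternatives either (exact permutation, adjusted p from 0.076 to 0.26). The alternative paired by replicate number, 1 of these 10, could not pass, because 4 pairs allow no exact p under 0.125. The exception among the 11 was the test without dnBrg1 replicate 3, the sample in which Crygs itself was lowest, where all 4 passed (exact permutation, adjusted p = 0.0286).

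Other bright probe sets moved in both directions. Of 185 probe sets whose mean was at or above that of the dimmest member (13.62), gamma crystallins included, 13.5% were called lower and 13% higher. Among the 178 of these that name no gamma crystallin, 11.8% were called lower and 13.5% higher. Of the 178, 5 had a lower log2 fold change than Crygf and 14 had a lower one than Cryga and Crygd, and the range from the 5th to the 95th percentile was -0.42 to 0.42. The 5 read transcripts of the ribosomal protein genes Rps26 (-0.86) and Rps29 (-0.60 and -0.59) and of the α-globin genes Hba-a1 and Hba-a2, which share 2 probe sets (-0.73 and -0.62). Another Rps29 probe set among the 178 was at -0.19 and not called (limma adjusted p = 0.105).

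The alpha and beta crystallin genes, the other main products of fibers, were measured on the same arrays. None of 8 alpha and beta crystallin genes was called in either direction, on the probe set with the highest mean by limma, and none had an unadjusted limma p under 0.05. The methods' t-test with Benjamini-Hochberg adjustment called 1 higher (Cryba4) and 1 lower (Crybb3). Their median log2 fold change was 0.08, and they ran from -0.12 for Crybb3, a basic β-crystallin gene, to 0.23 for Cryab, which encodes the small heat shock protein αB-crystallin. A second Cryab probe set of similar brightness was at -0.07 (limma adjusted p = 0.56). Cryaa, which lends the transgene its promoter, was at 0.04 ± 0.09, Cryba1 at -0.03 ± 0.09 and Crybb1 at -0.07 ± 0.09. Crybb2, with a mean far lower on the scale, was at 0.11 ± 0.26. Cryba2 (0.17 ± 0.09) and Cryba4 (0.20 ± 0.09), which encode acidic β-crystallins, had every dnBrg1 sample above every wild type sample, without passing (limma adjusted p = 0.18 and 0.10). Crybb3 had every dnBrg1 sample below every wild type sample, also without passing (-0.12 ± 0.09, limma adjusted p = 0.28). The difference between the gamma crystallins and the alpha and beta crystallins as families was not tested.

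**Figure D4:**
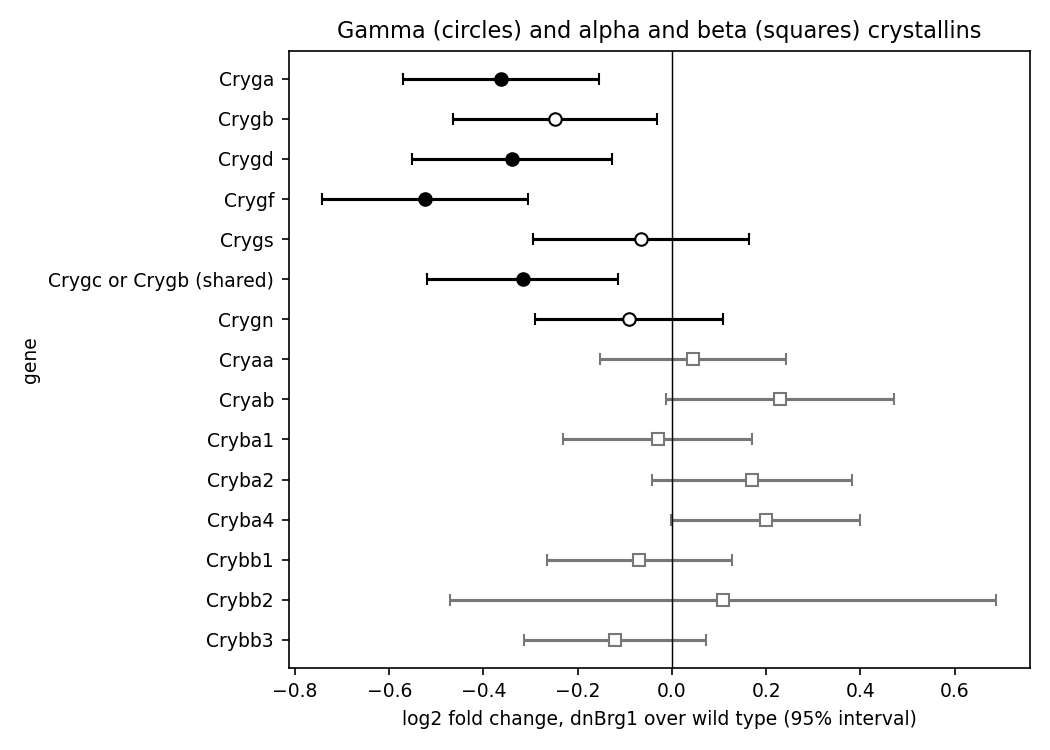
Log2 fold change, dnBrg1 over wild type (horizontal axis), with its 95% interval before adjustment, for gamma (circles) and alpha and beta (squares) crystallin genes (vertical axis). Filled symbols are called at a limma adjusted p under 0.05: Cryga, Crygd, Crygf and the shared probe set, all below 0.

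Genes of factors that are known or proposed to act on gamma crystallin promoters were read from a fixed list. Of 21 genes 19 were measured, and 3 rose and 9 fell, against 17.5% higher and 23.3% lower over the 12393 genes with a probe set of their own. The largest changes were decreases. Pitx3, a homeodomain factor required for lens development, went from 9.30 ± 0.16 to 8.07 ± 0.02 (SD, n = 4; log2 fold change -1.24 ± 0.10, limma adjusted p = 3.6e-05). Crebbp, which encodes the acetyltransferase CBP, was at -1.05 ± 0.12 (limma adjusted p = 0.00019), Sox2, an HMG-box factor of the early lens, at -0.86 ± 0.11 (limma adjusted p = 0.00023), and Mafg, a small Maf factor, at -0.80 ± 0.18 (limma adjusted p = 0.0066). Creb1, Six3, Sox3, Gata3 and Sox1 also fell, and Pax6, Prox1 and Rarb rose. Of the 4 other Pax6 probe sets 1 rose (1.39), and 3 were not called (0.31, 0.21 and 0.004; limma adjusted p from 0.092 to 0.99). Of the other Six3 probe sets 1 fell (-0.65) and 1 was at 0.16 (limma adjusted p = 0.26). Creb1 had 2 dimmer probe sets called higher (0.93 and 0.46), and the second Mafg probe set was at 0.38 (limma adjusted p = 0.23). Without 1 sample, the calls of Sox1, Prox1, Rarb and Gata3 were lost in at least 1 of the 8 fits and the others were kept in all of them. Sox1 lost it without wild type replicate 4 or dnBrg1 replicate 1 or 4, and Rarb without dnBrg1 replicate 1 or 4. Prox1 lost it without replicate 1, 2 or 4 of wild type or of dnBrg1, and Gata3 without wild type replicate 1, 3 or 4 or dnBrg1 replicate 1 or 3. With the 3′ to 5′ gap as a covariate only Pitx3 was called (-1.63, limma adjusted p = 0.012). Sox1, which activates gamma crystallin genes in fiber cells, was at -0.38 ± 0.11 (limma adjusted p = 0.021) at a low intensity of 4.98 in wild type. Maf, the gene of the large Maf factor c-Maf, was at -0.49 ± 0.21 and did not pass (limma adjusted p = 0.093). Its only probe set also read low, at 6.53 in wild type. Hsf4, the gene of the lens heat shock factor, was at 0.07 ± 0.17 (limma adjusted p = 0.76).

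Of 15 genes for other fiber proteins 9 were measured, with 4 higher and 2 lower. Over the 12393 genes with a probe set of their own, 17.5% were higher and 23.3% lower. Bfsp1, the gene of the beaded filament protein filensin (1.54), the connexin gene Gja3 (1.53) and Caprin2, the gene of an RNA-binding protein (0.62), rose. Cryl1, the gene of an enzyme also known as lambda crystallin, also rose (1.04), at a low intensity of 5.25 in wild type. The median over all probe sets was 7.69, and the second Cryl1 probe set was at 0.30 (limma adjusted p = 0.33). Hspb1, the gene of a small heat shock protein (-1.26), and Tmod1, the gene of an actin-capping protein (-0.83), fell, the former not called when replicate 2, 3 or 4 of wild type or of dnBrg1 was left out (limma adjusted p up to 0.12). Mip, the gene of the fiber cell water channel, was at -0.05 ± 0.12 with its brighter probe set and rose with the dimmer one (1.34). With the 3′ to 5′ gap as a covariate, Cryl1 was called among them (1.38, limma adjusted p = 0.032) and the others were not. In whole lenses, fewer fiber cells and less RNA per fiber cell cannot be told apart.

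Genes that follow the mean of the 5 members across the 8 samples were ranked by Pearson correlation among 6971 genes, crystallins aside, at or above the median intensity, as a description. Pdcd4, which encodes a translation inhibitor (r = 0.993), Abhd17c, a depalmitoylating enzyme gene (0.989), Bbip1, a BBSome subunit gene (0.987), Anks3 (0.985) and Cdkn1b, a cyclin-dependent kinase inhibitor gene expressed in fibers (0.985), came first. Such a value includes the genotype difference, and 581 genes had one above 0.9. Pdcd4 was at -0.39 ± 0.09, Abhd17c at -0.43 ± 0.09, Bbip1 at -0.45 ± 0.09, Anks3 at -1.23 ± 0.14 and Cdkn1b at -0.89 ± 0.12. These probe sets, the brightest of each gene, were all called lower in the reported fit and without any 1 sample, and none with the 3′ to 5′ gap as a covariate. They were picked for likeness to the members in these same 8 samples, so a lower call was likely beforehand and is no separate support. The other Cdkn1b probe set went the opposite way and rose from 9.999 to 11.61 (1.61 ± 0.40, limma adjusted p = 0.011), so no direction is given for this gene, and the other Anks3 probe set was at 0.31 (limma adjusted p = 0.13).

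Array controls and some markers of other tissues moved with genotype. With the 3′ to 5′ gap as a covariate Crygf was at -0.50 ± 0.22, Crygd at -0.40 ± 0.21, Crygb at -0.37 ± 0.21 and Cryga at -0.34 ± 0.20, none called (limma adjusted p from 0.21 to 0.35), and Crygs was at 0.0003 ± 0.23. The covariate nearly follows genotype, and the standard errors of the 5 members were 0.20 to 0.23 with it and 0.09 to 0.10 without it. Within wild type, the controls differed by 1.24 between replicates 2 and 3, the samples with the widest and the narrowest gap. The same samples differed by 0.04 for Crygf, by 0.02 for Cryga, by -0.05 for Crygd and by -0.13 for Crygb. No wild type gap reached the dnBrg1 range. Over the 8 samples, genotype difference included, the gap correlated with Crygf at 0.88, Cryga 0.87, Crygd 0.81, Crygb 0.70 and Crygs 0.37. Within wild type (n = 4) these values were 0.06, 0.11, -0.69, -0.70 and 0.23. The brighter Smarca4 probe set, for the gene of Brg1, was at -0.24 (limma adjusted p = 0.12) and the dimmer one rose (2.35). The marker counts that follow use the brightest probe set of each gene. Beside them, 17.5% of all 12393 such genes were called higher and 23.3% lower. Of 9 measured lens epithelium genes 4 rose and 2 fell, and their summed log2 level was 14.88 to 15.00 in wild type and 14.85 to 15.00 in dnBrg1 lenses. Npnt, counted as lower (-0.79), had dimmer probe sets called higher (0.69, 1.07 and 1.13) and another at -0.07. Wls, counted as higher (1.28), had others at 0.79, also called, and -0.36, not called. Retina markers (1 of 6 higher, 4 lower) summed to 13.43 to 13.86 and 12.86 to 13.36, macrophage markers (3 of 10 higher, 3 lower) to 13.26 to 13.52 and 11.77 to 12.67, and endothelial markers (4 of 8 higher, 2 lower) to 11.96 to 12.09 and 11.98 to 12.22. Mesenchyme (none of 7 called by limma, 2 higher at an unadjusted p under 0.05 and 0 by the methods' t-test after adjustment; 12.09 to 12.88 and 11.90 to 13.60), pigment (1 of 5 lower; 11.01 to 12.20 and 10.78 to 11.81) and muscle markers (2 of 7 higher; 8.95 to 9.87 and 9.43 to 12.25) overlapped between the groups. By the methods' t-test after adjustment, macrophage markers had 0 higher and 2 lower, and muscle markers had 0 higher. The lens epithelium, retina, endothelial and pigment counts were the same by that test as by limma. No marker is listed at 0, which averaged intensities never reach, and the part of these tissues and of the controls in the crystallin values was not tested.

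**Figure D5:**
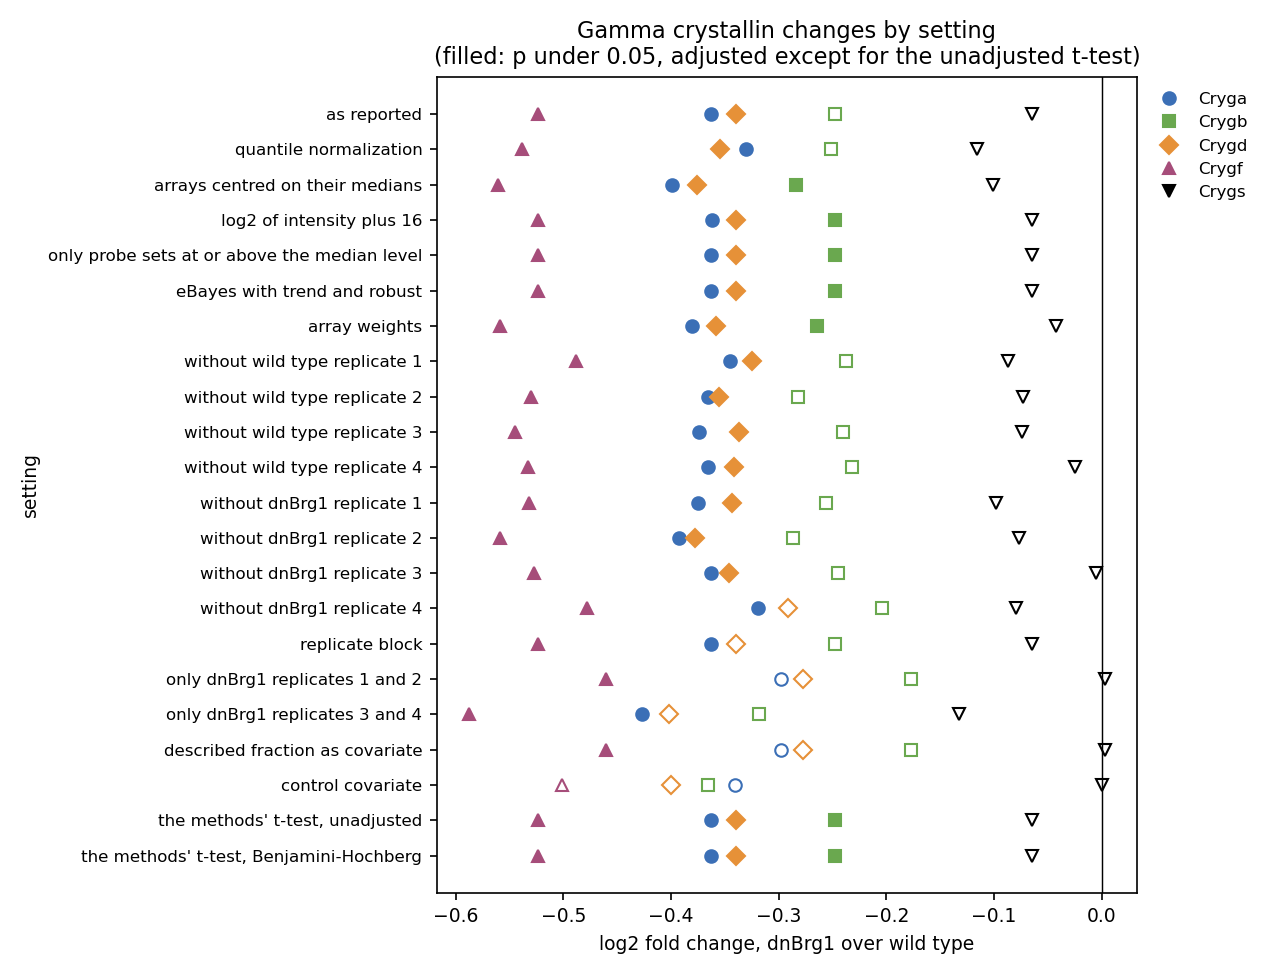
Log2 fold change of each gamma crystallin (horizontal axis) under the reported and 21 other settings (vertical axis), filled where p was under 0.05. Crygf is filled in all but the fit with the control covariate, and Crygs is never filled.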

How the data were processed

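RNA from 4 wild type and 4 dnBrg1 lenses was profiled, with 50 ng of total RNA amplified and labeled for each array. The scans of an Affymetrix 3′ expression array of the mouse genome were summarized by the authors with RMA, robust multichip averaging, as named in the submitters' processing notes (version not given in the sources used here). Intensity was deposited on a linear scale by the authors, and log2 was taken here. RMA equalizes the arrays' distributions, so a change shared by most transcripts is removed. The number of arrays limits the precision.

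Groups and replicate numbers came from the sample titles. After 64 array controls were set aside, 22626 probe sets were fitted with limma 3.58.1 in R 4.3.3 (lmFit, eBayes) without covariates or filter. The samples are called biological replicates, from distinct embryos. Pairs against Crygs were compared by exact permutation tests over samples. The fit was tested on simulated data. A gene's own probe set has the highest mean among those naming it alone. The text names every gamma crystallin probe set, the alpha and beta crystallins, up to 4 called regulators and fiber proteins of largest change, 5 genes by likeness and Smarca4. Sox1, Maf, Hsf4, Creb1, Six3, Sox3, Gata3, Pax6, Prox1, Rarb, Mip, Caprin2, Tmod1, Crygn, Rps26, Rps29 and the α-globin genes were named after their values were seen. Members, lists and tests were chosen with earlier results of these data known. The shared promoter runs and their spacing were found in the promoters they describe. Promoters were aligned with Biopython 1.88. Replicate numbers did not pair the samples: correlations of same-numbered deviations ran from -0.19 to 0.16.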

Additional observations from a re-analysis of the deposited data

Results flagged for a closer look

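The wild type values of Crygb held a sample apart from the others. Replicate 2 was at 14.03, and its gap to the next sample was 0.841 of the range of the 4, above Dixon's 95% critical value (12 groups of 4 were examined, and chance gives about 1 in 20). Without this sample the Crygb log2 fold change was -0.28 (limma adjusted p = 0.055; range over all alternatives 0.0070 to 0.35).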

How the results depend on the processing

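The 5 members and the shared probe set were recomputed with arrays rescaled, with 16 added before log2, without dim probe sets, with other variance models or array weights, without each sample, with the replicate block, by described RNA fraction, with the 3′ to 5′ control gap as a covariate (the control covariate) and by the methods' t-test. Significance analysis of microarrays, which the paper's full criterion also required, was not run. The 4 differences to Crygs had 11 alternatives: quantile scaling, 16 added, each sample left out and the block. The value of Cryga, Crygb, Crygd, Crygf and the shared probe set was negative in all 21 alternatives. Crygf was called in 20 of them, Cryga in 18, Crygd in 15 and the shared probe set in 14, and Crygb, not called as reported, in 7. Crygs was called in none. Its sign turned to 0.0033 with dnBrg1 replicates 1 and 2 alone and with the described fraction as a covariate, and to 0.00027 with the control covariate. Replicates 1 and 2 alone and the described fraction give the same fold changes by design, since no wild type sample is described as total. These 2 settings are therefore not separate evidence. The count of members called lower was 3 as reported, 1 with dnBrg1 replicates 1 and 2 alone, 1 with the described fraction as a covariate and 0 with the control covariate (4 at an unadjusted p under 0.05 as reported), and 2 to 3 without 1 sample; the cause was not tested. The count called higher was 0 in every alternative. With the replicate block 2 were called lower, Cryga (adjusted p = 0.045) and Crygf (adjusted p = 0.014), and Crygd (adjusted p = 0.061) and the shared probe set (adjusted p = 0.066) lost the call. In the replicate block the paired differences to Crygs were unchanged in size (-0.30, -0.18, -0.27 and -0.46 for Cryga, Crygb, Crygd and Crygf), with an exact p of 0.125, the smallest that 4 pairs allow. Only 1 of 8 samples correlated best with its own number in the other group. Over all probe sets the control covariate left 808 higher and 634 lower calls (4484 and 4745 as reported), dnBrg1 replicates 1 and 2 alone 2600 lower, replicates 3 and 4 alone 2825 lower, and the described fraction 3114 lower. Leaving out 1 sample, the differences to Crygs ran from -0.36 to -0.24 for Cryga, from -0.24 to -0.12 for Crygb, from -0.34 to -0.21 for Crygd and from -0.52 to -0.40 for Crygf. Centring arrays on their medians moved the median of all probe sets from -0.08 to -0.12, against which Crygf was at -0.56. The members' signals lay near the top of the scale, and whether this limits what these arrays can resolve was not tested.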
